A study of Mus musculus with 6 samples.

Results

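The bone morphogenetic protein (BMP) pathway and its Id target genes were described in mouse embryonic stem cells after knockdown of REST, a repressor of neuronal genes. The genes were 10 chosen by name: the ligand Bmp4, the receptor Bmpr1a, the signal carriers Smad1 and Smad5, the inhibitors Smad6 and Smad7, and Id1, Id2, Id3 and Id4. All probes that the platform's annotation gave to these names were taken, which came to 16 probes of 9 genes among 25697 probes and 16593 named genes. Smad7 had no probe under its name in the annotation used here and was not analysed here. Of the 16 probes, 13 probes of 8 genes were bright enough to test.

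Expression was measured on Illumina bead arrays in cells of the E14 line. The control group of 3 samples received the empty pSuper vector, and the knockdown group of 3 samples received an shRNA against REST, a hairpin RNA that lowers its target transcript. Both groups were taken at 72 h, and no other treatment or allele separated them in the labels. The sequence of the hairpin, and whether the cells were selected for the vector, are not stated in the labels. Rest itself could not check the labels, since none of the 6 arrays showed its single probe above background (mean intensity -0.03 ± 0.60 in control and 0.63 ± 2.52 in knockdown cells, SD, n = 3). The labels do not say whether replicates came from separate cultures, and the p-values then cover only the spread between these samples, technical spread included.

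BMP ligands bind pairs of type I and type II receptors, and the type I receptor phosphorylates Smad1, Smad5 and Smad9. These join Smad4 and enter the nucleus, where Id genes are among their best known targets, together with Smad6 and Smad7, which feed back to inhibit the pathway. Id proteins have a helix-loop-helix but no DNA-binding region, so they hold E proteins and related factors off DNA. In mouse embryonic stem cells BMP4 and the Id proteins are known to help keep the cells undifferentiated together with the cytokine LIF.

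The stretches just upstream of the 4 genes that passed the test are shown because these genes moved in both directions, and because Smad proteins can bind GC-rich sites. Each stretch is the 250 bases before the gene's start in RefSeq's annotation of GRCm38.p6, read 5′ to 3′ along the gene's strand. Capitals mark GGCGCC or GGAGCC, GC-rich motifs that Smad1 and Smad5 can bind, searched on both strands.
Id3 (chr4:136143572-136143821, + strand): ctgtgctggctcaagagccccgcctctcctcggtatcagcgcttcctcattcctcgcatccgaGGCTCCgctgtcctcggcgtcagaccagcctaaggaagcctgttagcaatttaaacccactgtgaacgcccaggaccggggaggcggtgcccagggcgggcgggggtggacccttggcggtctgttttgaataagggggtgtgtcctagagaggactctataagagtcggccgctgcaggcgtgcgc
Id2 (chr12:25096093-25096342, - strand): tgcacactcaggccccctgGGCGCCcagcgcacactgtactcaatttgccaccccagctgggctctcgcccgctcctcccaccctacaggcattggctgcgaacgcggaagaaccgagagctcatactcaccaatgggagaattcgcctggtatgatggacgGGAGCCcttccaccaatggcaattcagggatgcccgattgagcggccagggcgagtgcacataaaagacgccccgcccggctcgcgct
Bmp4 (chr14:46390670-46390919, - strand): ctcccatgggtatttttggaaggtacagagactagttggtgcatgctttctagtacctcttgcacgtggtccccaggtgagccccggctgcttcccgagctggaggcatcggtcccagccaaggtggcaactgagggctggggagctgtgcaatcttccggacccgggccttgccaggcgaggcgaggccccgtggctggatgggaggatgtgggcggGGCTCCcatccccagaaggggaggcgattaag
Smad6 (chr9:64022060-64022309, - strand): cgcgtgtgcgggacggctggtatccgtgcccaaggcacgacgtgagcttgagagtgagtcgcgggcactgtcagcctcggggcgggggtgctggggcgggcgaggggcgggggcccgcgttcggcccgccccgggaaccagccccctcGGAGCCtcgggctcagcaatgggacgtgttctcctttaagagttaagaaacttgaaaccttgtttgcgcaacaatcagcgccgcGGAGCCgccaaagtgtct

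All 4 stretches held GGAGCC or its reverse complement, which lay 187 bases before the start of Id3, 88 before that of Id2, 32 before that of Bmp4, and 102 and 18 before that of Smad6. GGCGCC was found in Id2 alone of these 4, 231 bases before its start. RefSeq windows of 8 of the 10 genes were used, 10 windows in all because Smad5 has 3 starts, and none of Id1 or Smad7 was included. GGAGCC was in 6 of these windows and GGCGCC in 4, and no matches overlapped. In 32851 windows of the same length, GGAGCC was in 26.0% and GGCGCC in 9.6%. The windows of the 8 genes held 60.0% to 78.8% G and C against a median of 52.4% in all windows, so base composition differs too. Of the genes that were tested and not called, Bmpr1a and Smad5 also had matches and Smad1 had none. Id4, which was not tested, had both motifs. The E-box letters CANNTG, a site of the factors that Id proteins hold off DNA, was in 4 of the 10 windows, against 66.2% of all windows. It occurred 3 times upstream of Bmp4, 1 time upstream of Id2 and 1 time in each of 2 overlapping Smad5 windows. A match is a description of the letters only.

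The 4 Id genes did not move together. Id3 rose 1.72-fold and Id2 fell 1.41-fold, while Id1 did not pass the test and Id4 was not above background on any array. Levels are on the log2 scale after background correction and quantile normalization, and changes are knockdown minus control. A change is called where limma's p, adjusted over all 12406 tested probes by the Benjamini-Hochberg method, is under 0.05. In samples of whole cultures, fewer cells that express a gene and less RNA per cell cannot be told apart.

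**Figure D1:**
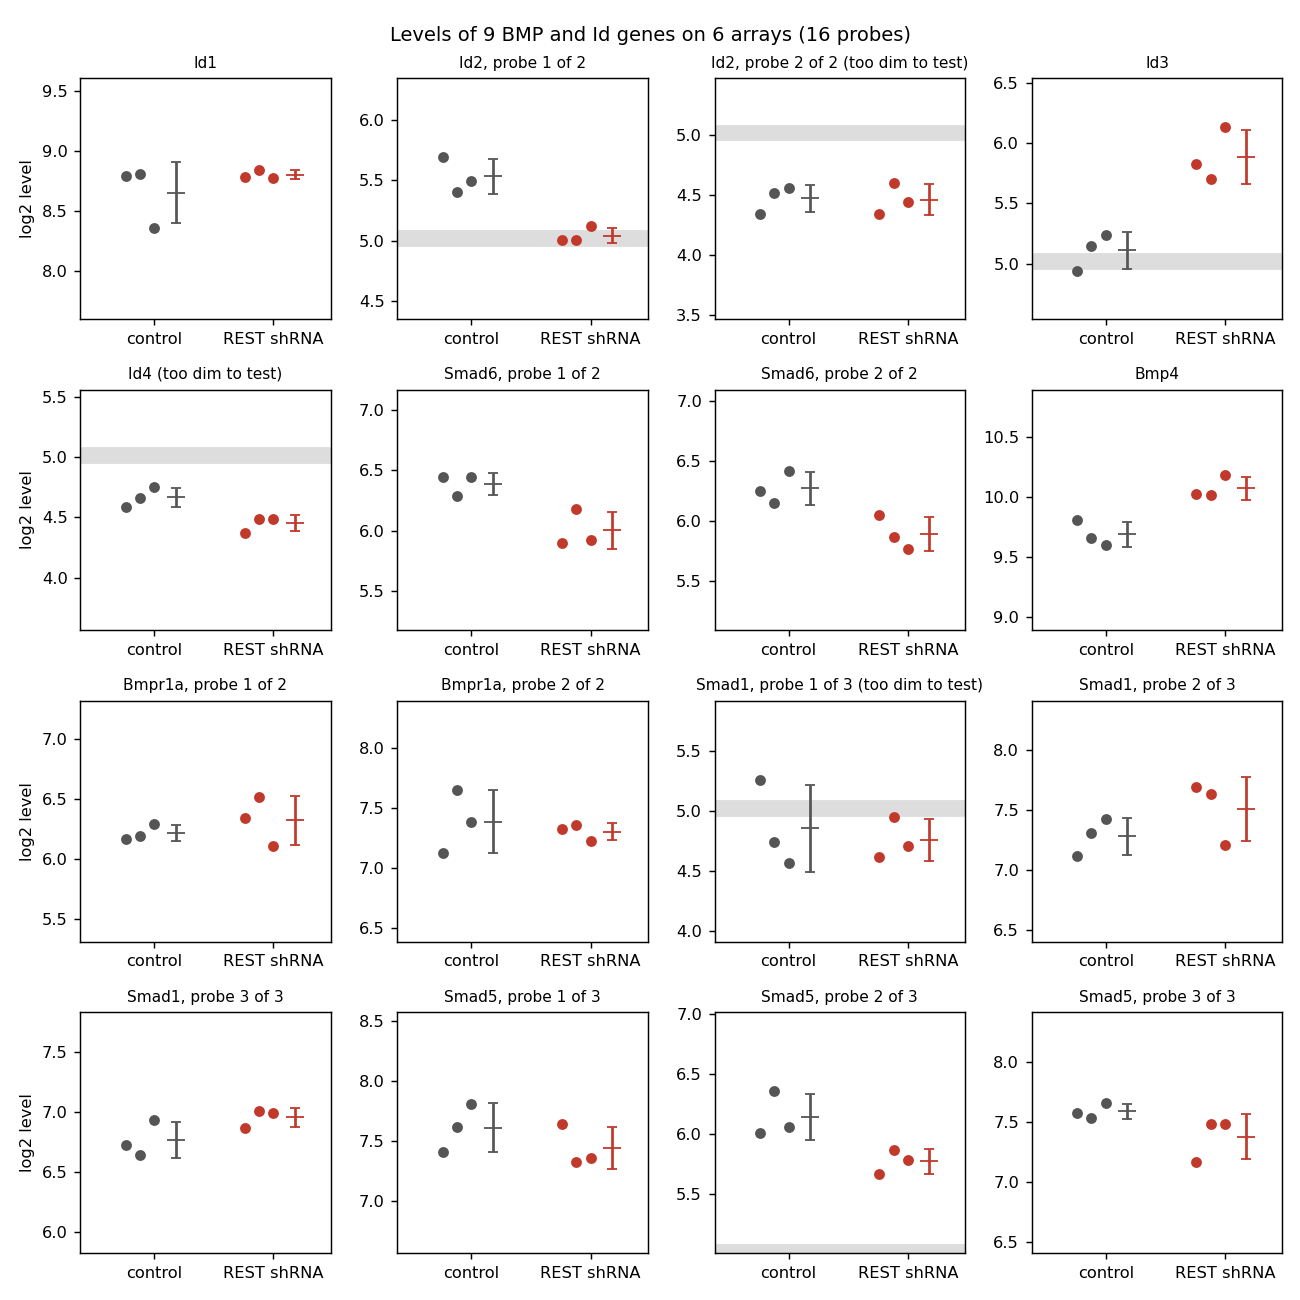
Normalized log2 level (y axis, a span of 2 units in every panel) of each of the 16 probes in 3 control and 3 REST shRNA samples, with the mean and SD beside the points; the grey band is the range over arrays of the lowest level counted as above background. The groups lie apart for the called probes of Id3, Id2, Bmp4 and Smad6. The Smad5 probes with log2 changes of -0.37 and -0.21, which were not called, also have groups that lie apart. So does Id4, which was not tested. Id4 and the dimmer Id2 probe lie below the band on all 6 arrays.

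Id3, an inhibitor of E proteins, had log2 levels of 4.94, 5.15 and 5.24 in the control samples and of 5.83, 5.70 and 6.14 in the knockdown samples. All 3 knockdown samples lay above all 3 controls. The log2 change was 0.78 ± 0.14 (SE, n = 3; 95% interval 0.46 to 1.10; limma adjusted p = 0.00513). Control levels were close to background, and 2 of the 3 control arrays were above it. With arrays below background held at that level the change was again 0.78. On the scale before normalization the mean intensity was 17.8 ± 3.50 in control and 44.6 ± 9.11 in knockdown cells (SD, n = 3).

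Id2, a further inhibitor of the same family, went the opposite way. Its log2 levels were 5.70, 5.41 and 5.50 in control and 5.0, 5.01 and 5.12 in knockdown samples. The groups did not overlap, with the knockdown samples at the edge of background, where 2 of 3 were above it. The log2 change was -0.49 ± 0.11 (SE, n = 3; 95% interval -0.75 to -0.23; adjusted p = 0.0140). The intervals of Id2 and Id3 do not overlap, but the difference between the genes' changes was not tested. The other Id2 probe was not above background on any array, so this fall rests on 1 probe.

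The sizes of the Id3 and Id2 changes depended on the treatment of background, as these are dim probes. Without background correction the log2 changes were 1.27 for Id3 and -0.89 for Id2, and with an offset of 50 they were 0.45 and -0.26. Both genes passed the test under each of the 15 alternatives that could be run on them, with adjusted p of 0.00146 to 0.0204 for Id3 and 0.0105 to 0.04996 for Id2.

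Id1, often used as the readout of BMP signalling in stem cells, had log2 levels of 8.79, 8.81 and 8.36 in control and of 8.78, 8.84 and 8.77 in knockdown samples. The groups overlapped, and control replicate 3 was the lowest sample. The log2 change was 0.15 ± 0.14 (SE, n = 3; adjusted p = 0.461), with a 95% interval from -0.16 to 0.46. Without control replicate 3 the change was 0.00 (limma adjusted p = 0.992). With any other array left out it was 0.13 to 0.23 (adjusted p of 0.340 to 0.630). In the authors' ratios it was 0.29 (adjusted p = 0.186).

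Id4, which is known for roles in neural progenitors, stayed within background on all 6 arrays. Its intensities, where 0 is the background, were 2.8, 5.2 and 7.9 in control and -8.3, -1.6 and -1.7 in knockdown samples. No test or fold is given, because these values carry no level above background.

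Bmp4, the ligand, rose 1.30-fold and was well above background. Its log2 levels were 9.81, 9.66 and 9.60 in control and 10.02, 10.01 and 10.18 in knockdown samples. The lowest knockdown sample lay above the highest control. The log2 change was 0.38 ± 0.11 (SE, n = 3; 95% interval 0.13 to 0.63; adjusted p = 0.0322). The call is close to the threshold. It was lost without background correction (adjusted p = 0.0506), with median scaling (0.0632) and without any 1 array other than control replicate 1 (0.0575 to 0.0981), while the change stayed between 0.33 and 0.52 under all 16 alternatives.

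Bmpr1a, a type I receptor for BMP2 and BMP4, did not pass the test at either probe. At the brighter probe its log2 levels were 7.13, 7.65 and 7.38 in control and 7.32, 7.36 and 7.22 in knockdown samples. The knockdown values lay within the span of the controls. The log2 changes were -0.08 ± 0.14 (95% interval -0.40 to 0.23) and 0.10 ± 0.13 (95% interval -0.18 to 0.39) at the 2 probes (SE, n = 3; adjusted p = 0.698 and 0.581). The direction at the brighter probe turned in the authors' ratios (0.02) and without control replicate 2 (0.05).

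Smad1 and Smad5, which carry the signal from the receptors, did not pass the test. Smad1 had log2 changes of 0.23 ± 0.15 and 0.19 ± 0.12 at its 2 tested probes (SE, n = 3; adjusted p = 0.303 and 0.269), and the groups overlapped at each. Another Smad1 probe was above background on 1 array only. Smad5 had log2 changes of -0.17, -0.37 and -0.21 at its 3 probes, with SEs of 0.12 to 0.14.

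The Smad5 probe with the change of -0.37 came nearest to the threshold (adjusted p = 0.0598). Its log2 levels were 6.01, 6.36 and 6.06 in control and 5.67, 5.87 and 5.79 in knockdown samples, so the groups did not overlap. It was called with median scaling (0.0447) and under the stricter filter on dim probes (0.0353). The brightest Smad5 probe, which stands for the gene, had overlapping groups and a 95% interval of -0.48 to 0.15 (adjusted p = 0.410).

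Smad6, an inhibitor of the receptor-activated Smads and a target of the pathway, fell at both of its probes. At the brighter probe the log2 levels were 6.44, 6.29 and 6.44 in control and 5.90, 6.18 and 5.92 in knockdown samples. At the other they were 6.25, 6.15 and 6.42 in control and 6.05, 5.87 and 5.77 in knockdown samples. The groups lay apart at each probe, by a narrow margin.

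The log2 changes of Smad6 were -0.39 ± 0.12 and -0.38 ± 0.12 (SE, n = 3; adjusted p = 0.0392 and 0.0485), which is 1.31-fold and 1.30-fold lower. At the brighter probe the call was lost in the authors' ratios (-0.26, adjusted p = 0.193), without background correction (adjusted p = 0.0531), and in 5 of the 6 fits that left out 1 array (0.0581 to 0.114). It held when knockdown replicate 2 was left out, where the change was -0.48. The call at the other probe held in 1 of these 6 fits, without knockdown replicate 1.

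**Figure D2:**
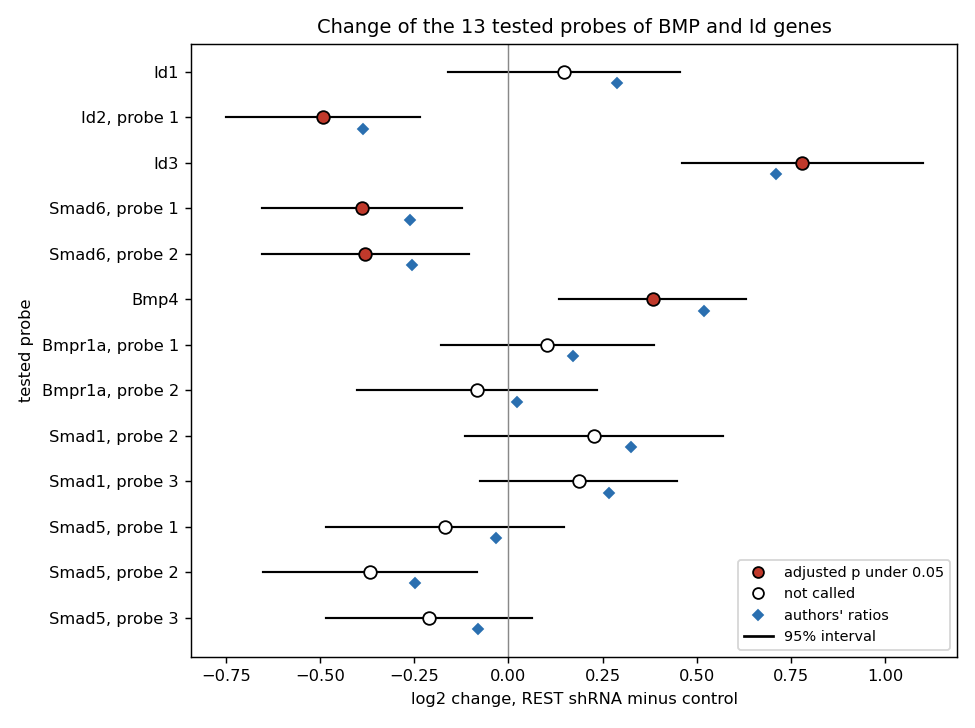
Log2 change (x axis, REST shRNA minus control) of each of the 13 tested probes, with the 95% interval of the limma fit; red points were called, open points were not, and diamonds give the change in the authors' ratios. Id3 at 0.78 and Id2 at -0.49 lie on opposite sides of 0, and of the 8 probes that were not called all but the second of Smad5 have intervals that cross it.

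Of the 8 genes tested, 2 rose and 2 fell, beside 27.0% of all tested genes called in either direction. Of the 13 tested probes of these 8 genes, 5 were called. Over all tested probes 25.9% were called, 12.8% higher and 13.1% lower. The median log2 change of the 8 genes was 0.03, against 0.00 for all 8740 genes tested. The groups did not overlap for 7 of the 13 probes and for 43.3% of all tested probes. The calls of Bmp4 and Smad6 lie near the threshold, and with so few genes 1 call moves these shares by a large step. Whether the genes differ from others as a group was not tested.

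**Figure D3:**
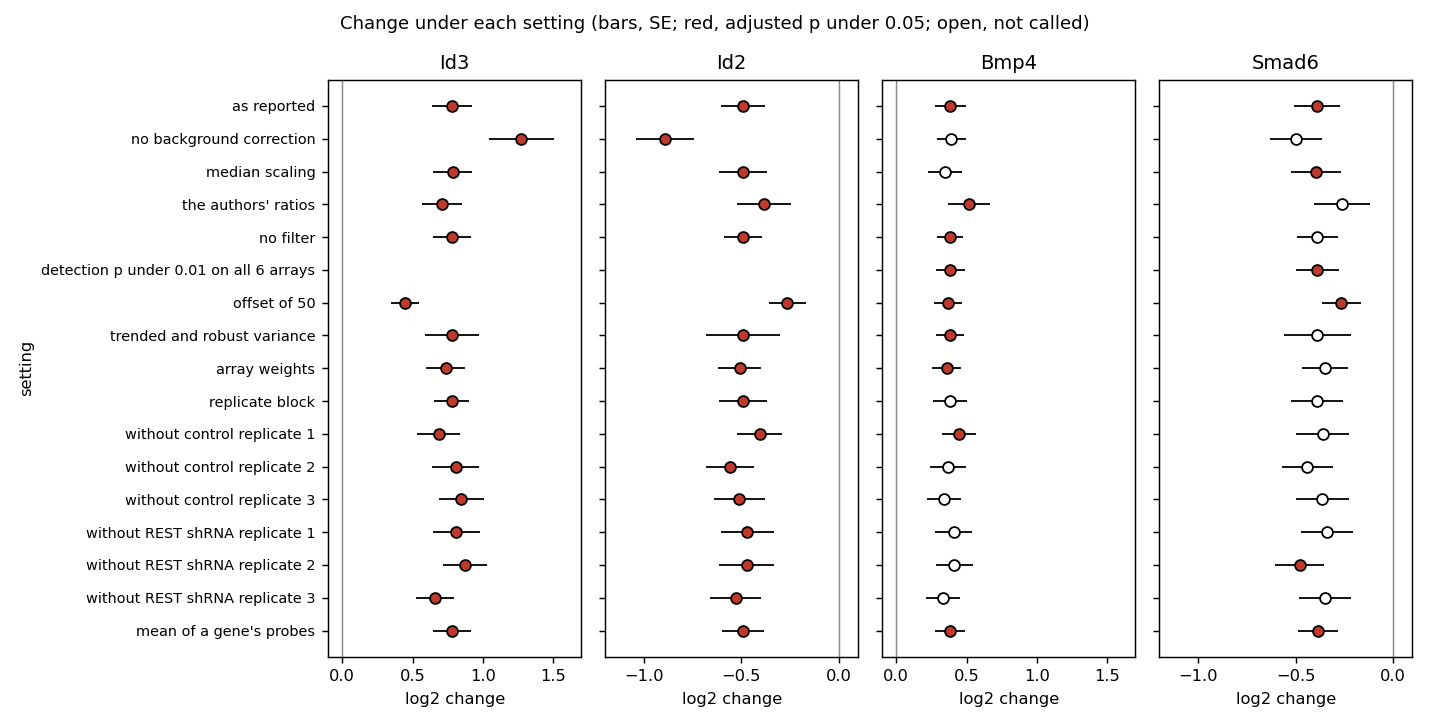
Log2 change (x axes, REST shRNA minus control, with SE) of the 4 called genes as reported and under each alternative setting; red points had an adjusted p under 0.05 and open points did not. Id3 and Id2 were called under every alternative that could be run on them, whereas Bmp4 and Smad6 were called in 8 and 5 of 16, and a stricter filter on dim probes removed Id3 and Id2 from the test.

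Other genes of the pathway were taken from lists of 94 genes by role. Of these, 86 had a named probe and 41 were tested. In all 3 rose and 11 fell, or 34.1% of the 41, with a median log2 change of -0.01. For comparison, 27.0% of the 8740 tested genes on the array were called, 1212 higher and 1146 lower. Falls outnumbered rises among the pathway genes but not among all genes. Whether the pathway genes differ from others as a group was not tested. The lists by role hold too few tested genes to set their own shares against that of all genes. Of the 45 with a probe that were not tested, 38 were not above background on any array.

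Among the other ligands, Bmp7 fell 2.04-fold, from a log2 level of 8.01 ± 0.12 to 6.98 ± 0.34 (SD, n = 3; log2 change -1.03 ± 0.17, SE; adjusted p = 0.00329). Bmp8a, a ligand known from male germ cells, had a log2 change of -0.59 ± 0.17 (SE, n = 3; limma adjusted p = 0.0334), or -0.35 with an offset of 50. Without background correction the change was -0.89 and was not called (adjusted p = 0.0755), nor was it called with no filter on dim probes (0.0612). Its call was also lost without control replicate 1 or 2 or knockdown replicate 1 or 3 (log2 changes of -0.44 to -0.64, adjusted p of 0.0546 to 0.108). Gdf3, a relative of the BMPs that stem cells express, had 0.00. Bmp2 and 9 other ligands of the 14 listed were not above background on any array.

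Among the receptors, none of the 4 tested genes was called by limma, and none had an unadjusted p under 0.05. The type I receptor Acvr1 had a log2 change of 0.06 ± 0.13 (95% interval -0.24 to 0.36, n = 3). The type II receptor Bmpr2, which pairs with Bmpr1a, was not above background at either of its probes on any array. The stem cells' level of this receptor was therefore not measured.

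Of 4 tested extracellular modulators, 3 were called lower, beside 13.1% of all tested probes. The log2 changes were -0.53 ± 0.12 for chordin (Chrd), an antagonist that binds BMPs, -0.56 ± 0.13 for the follistatin-like protein Fstl1, and -0.48 ± 0.14 for Twsg1, which binds both chordin and BMPs (SE, n = 3; adjusted p = 0.0148, 0.0156 and 0.0350). Without knockdown replicate 3 none of the 3 was called (adjusted p of 0.0510, 0.0520 and 0.114). Chrd was also not called without knockdown replicate 2 (0.0527), Fstl1 without control replicate 2 (0.0572), and Twsg1 without any 1 array other than control replicate 1, while the change of Twsg1 stayed between -0.40 and -0.62. In the authors' ratios Chrd (adjusted p = 0.0610) and Twsg1 (0.0872) were not called. Twsg1 was not called without background correction (0.0744) or with no filter on dim probes (0.0561) either. A further Twsg1 probe was not above background on any array, so the fall of Twsg1 rests on 1 probe. Noggin (Nog), another antagonist, was not above background on any array.

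Of 17 intracellular mediators and regulators, each read at its brightest tested probe, 2 fell and 15 were not called. The share called was 11.8%, beside 27.0% of all tested genes called in either direction. Tob1, which can bind Smads and dampen BMP signals, had log2 levels of 8.24 ± 0.07 in control and 7.55 ± 0.04 in knockdown cells (SD, n = 3; log2 change -0.69 ± 0.10, SE; adjusted p = 0.00212). Zfp423, a zinc finger partner of Smads, had a log2 change of -0.71 ± 0.14 (adjusted p = 0.00691), whereas a further Zfp423 probe gave -0.39 (adjusted p = 0.0587). The probes of Ppm1a, a phosphatase that can act on Smads, disagreed. Its brightest probe had a log2 change of 0.15 and another 0.12, neither called, while the third was called lower at -0.40 (adjusted p = 0.0211). Smad4, the shared partner of the receptor-activated Smads, had -0.08 ± 0.10 (95% interval -0.31 to 0.14), or 0.03 in the authors' ratios. Bambi, a decoy receptor, was above background on 1 control array only and was not tested.

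Of 8 tested target genes outside the members, 4 fell and 1 rose, beside 27.0% of all tested genes called in either direction. Msx1, a homeobox gene induced by BMPs in many tissues, had a log2 change of -0.77 ± 0.16, with 2 of 3 knockdown arrays above background. It had -0.45 with an offset of 50 and -1.22 without background correction. Gata2, a blood and mesoderm regulator, had -1.04 ± 0.12. Hes1, better known as a Notch target, had -0.71 ± 0.11, and Junb, an immediate early gene that many signals induce, -0.65 ± 0.11 (SE, n = 3; largest adjusted p of these 4 genes 0.00885, for Msx1). Tfap2c, a factor of the trophoblast and germ line, rose 1.78-fold (log2 change 0.83 ± 0.14, SE), with 0.82 and 0.72 at its 2 other probes. Dusp9, a phosphatase known as a BMP target in stem cells, was not above background on any array.

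Among factors that Id proteins can bind, 2 of 5 tested genes were called higher, beside 12.8% of all tested probes, and both calls were lost in most fits that left out 1 array. The E protein Tcf12 had a log2 change of 0.45 ± 0.12 (adjusted p = 0.0211), with 2 of 3 control arrays above background, and Ets1 0.38 ± 0.11 (SE, n = 3; adjusted p = 0.0331). Further probes of both genes were not above background on any array, so each rise rests on 1 probe. With an offset of 50 Tcf12 had 0.24 and was not called (adjusted p = 0.0641), and without background correction it had 0.83. Tcf12 was called in 2 and Ets1 in 1 of the 6 fits that left out 1 array. Without knockdown replicate 3 the adjusted p was 0.0710 for Tcf12 and 0.0984 for Ets1, the highest of these fits for each gene. Ets1 was not called with median scaling either (0.0577), nor Tcf12 with a trended robust variance (0.0671). Tcf4, another E protein, had 0.03. Tcf3 had no probe under its name in the annotation used here.

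**Figure D4:**
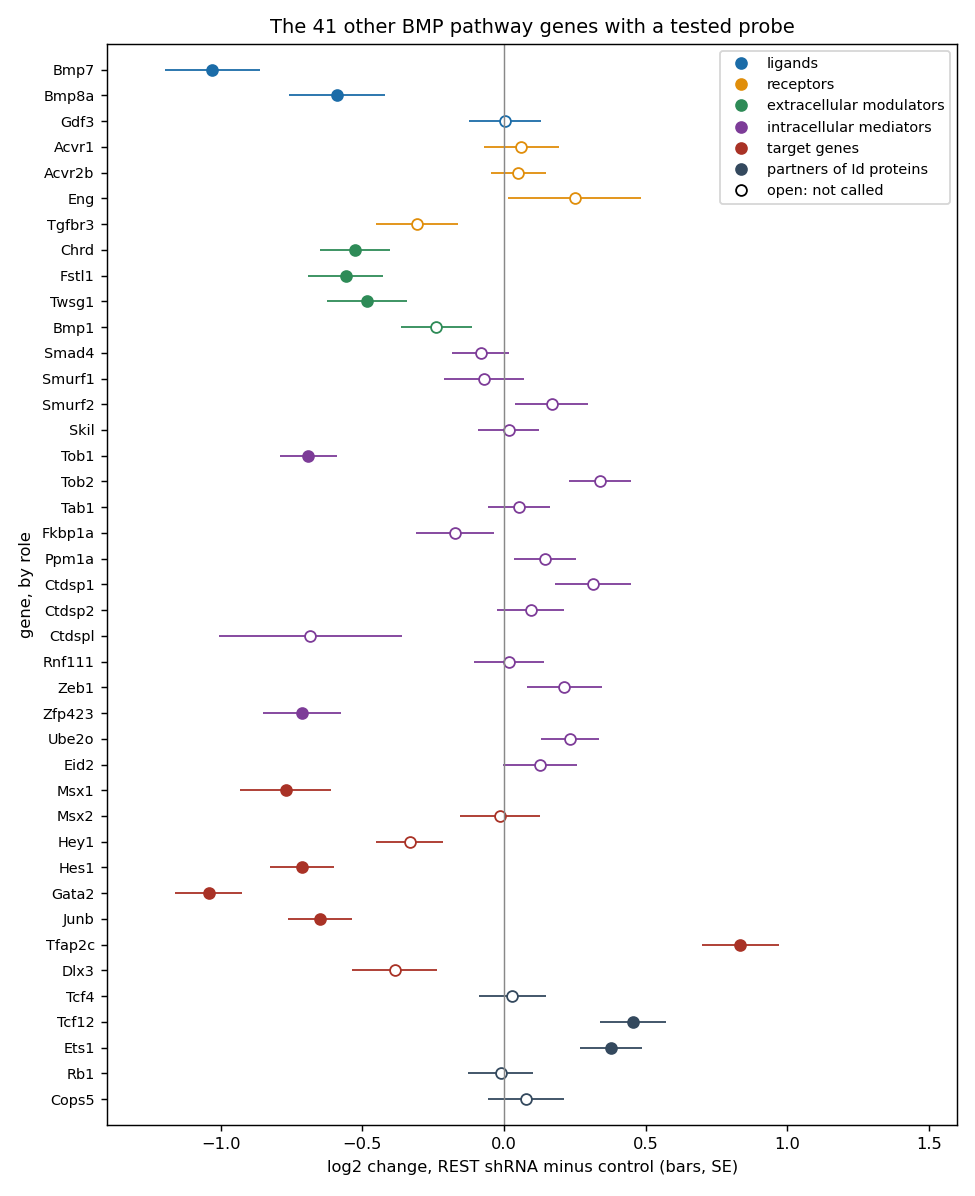
Log2 change (x axis, REST shRNA minus control, with SE) of the 41 other pathway genes with a tested probe, coloured by role; filled points were called. Bmp7 and Gata2 lie near -1, Tfap2c at 0.83 is the highest, and the 4 receptors lie between -0.31 and 0.25.

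The arrays had mean intensities of 442 to 473, and 46.4% to 49.0% of probes were above background. Calls over all probes were 49.5% higher as fitted here and 70.0% higher in the authors' ratios, where the median log2 change of all tested probes was 0.09, so a shift of that size separates the scales. Stem cell markers with a probe numbered 12, and all were tested. Pou5f1 fell by 0.63 on the log2 scale, and Zfp42, Fbxo15 and Dppa4 rose. The other 8, Nanog and Sox2 among them, were not called. The summed level of the 12 was 99380 to 101800 in control and 106300 to 109600 in knockdown samples. This linear sum weighs bright genes most, such as Dppa5a (mean log2 level 15.76 in control and 15.74 in knockdown samples). The median log2 change of the 12 was -0.004. Of 8 neural progenitor markers 7 had a probe and 3 were tested. Their summed level on the linear normalized scale ranged from 222 to 277 in control and from 111 to 142 in knockdown samples, with Dll1 and Nes lower and Sox1, Pax6 and Neurog2 above background nowhere. Neurog1, also tested, was not called (log2 change -0.13). Of 11 fibroblast markers 3 were tested, and none was called by limma (1 had an unadjusted p under 0.05). Their summed level was 677 to 840 in control and 558 to 658 in knockdown samples, with Col1a1, Col3a1, Dcn, Lum, Postn and Fap above background nowhere. Thy1, the brightest of the 3 tested, weighs most in this sum and had a log2 change of -0.36 (limma adjusted p = 0.0616). Loxl1 had -0.23 and Pdgfrb -0.004. Mesoderm markers summed to 151 to 170 and 108 to 133, and of the 3 tested Gsc alone was called, lower. Kdr (log2 change 0.03) and Tbx6 (-0.07) were not called, and Mixl1, Mesp1, Eomes and Hand1 were above background nowhere. Endoderm markers summed to 802 to 860 and 921 to 937. Dab2 was higher at its brightest probe, but not called at another (limma adjusted p = 0.278). Gata6 (-0.19) and Lama1 (0.12) were not called, and Gata4, Sox17, Sox7 and Foxa2 were above background nowhere. Trophoblast markers summed to 3276 to 4450 and 6409 to 7312, but of the 3 tested Tfap2c alone rose, itself one of the listed BMP targets, while Ascl2 fell (log2 change -0.74) and Krt7 had -0.27 and was not called. The part of these shifts in the changes of the BMP and Id genes was not tested.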

How the data were processed

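Per the labels, total RNA was DNase-treated, checked for quality, labelled with biotin and hybridized. The deposited table gives each probe's linear intensity on every array, without normalization between arrays and centred on each array's background, with 25.3% to 26.3% of values below 0. It also holds a deposited detection score, headed as a p-value, that rises to 1 for bright probes, and the detection p was therefore taken as 1 minus this score. The authors' other deposited table gives linear ratios. These follow from the intensities by subtracting each array's minimum, adding 0.1, scaling the array and dividing by a value fixed for the probe (within 0.001 on the log2 scale for 100% of values). What that value is, and the software, is not given here by any label or header. Group and replicate came from the titles.

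Normal-exponential background correction used limma 3.58.1 (R 4.3.3; offset 16), and arrays were quantile normalized. Tested probes had to pass a detection p of 0.05 on 3 or more of 6 arrays. The test was limma, with group as the only term. The brightest tested probe stood for a gene. The rule named the 10 members, Rest, every called gene of the pathway lists, and Bmpr2, Acvr1, Smad4, Nog, Bambi, Dusp9 and Tcf3 called or not. Other genes were named after their values were seen. The members and lists were chosen with earlier results of these data known. The fit was tested on simulated data with independent noise on the normalized scale. Those data did not pass through background correction or normalization, so these steps were not checked by it. With 3 samples against 3, exact permutation could reach no p below 0.10 for a gene. The number of arrays limits the precision. Deviations from the group means correlated at -0.06, 0.03 and 0.04 between same-numbered arrays. The labels do not say whether samples were paired, and these values cannot settle it.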

Additional observations from a re-analysis of the deposited data

How the results depend on the processing

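Alternatives were median scaling, no background correction, a filter at a detection p of 0.01 on every array, no filter, the authors' ratios, array weights, a trended robust variance, an offset of 50, the replicate block, the mean of a gene's probes, and leaving out each array. At the probe standing for each gene, Id1, Smad1 and Smad5 were not called, and Id2 and Id3 were called, under all that could be run on them (another Smad5 probe was called under 2); the strict filter dropped Id2 and Id3. The log2 change of Smad6 lost its call with no background correction (-0.50), in the authors' ratios (-0.26), with no filter (-0.39), a trended robust variance (-0.39), array weights (-0.35) and the replicate block (-0.39). Bmp4 lost it with no background correction (0.39), median scaling (0.35) and the replicate block (0.38). The cause was not tested. Bmpr1a turned to 0.024 in the authors' ratios, to 0.048 without control replicate 2 and to 0.010 with the mean of its probes. Acvr1 turned to -0.021 without control replicate 1 and -0.046 without knockdown replicate 1 (range -0.046 to 0.13 over arrays left out), and Smad4 turned to 0.033 on the scale of the authors' table.

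With each array left out in turn, log2 changes were 0.66 to 0.87 for Id3, -0.56 to -0.41 for Id2, 0.33 to 0.44 for Bmp4, -0.48 to -0.34 for Smad6 and -0.22 to 0.05 for Bmpr1a. Among members, 1 to 2 were higher and 1 to 2 lower in these fits. Members called higher numbered 1 with no background correction, median scaling, the strict filter and the replicate block. Members called lower numbered 1 with no background correction, the authors' ratios, no filter, the strict filter, a trended robust variance, array weights and the replicate block. With the replicate block Twsg1 (adjusted p = 0.0530) and Ets1 (0.0545) were also not called. The labels do not say that same-numbered arrays were paired, so the block is given here only. Other pathway genes numbered 1 to 3 higher and 7 to 12 lower with an array left out, the fewest lower without knockdown replicate 3. Over all probes, 1027 to 1355 were higher and 991 to 1368 lower, against 1590 and 1619 as reported, with the lowest counts without control replicate 2. The authors' ratios gave 907 lower, and 2118 higher.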
